A study of Homo sapiens with 58 samples.

Results

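ZFP36, ZFP36L1, ZFP36L2 and KHSRP encode RNA-binding proteins that speed the decay of transcripts with AU-rich elements. HuR signal was recorded on their own transcripts in this experiment, for ZFP36 close to the limit of counting. The 4 genes were chosen by name for that known role. All peaks that the deposited table assigns to them were taken, which gave 39 of the 387214 peaks left after repeated lines were dropped. ZFP36 had 3 peaks, ZFP36L1 had 7, ZFP36L2 had 12 and KHSRP had 17.

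HuR (gene ELAVL1) binds U-rich and AU-rich stretches, mostly in introns and 3'UTRs, and tends to stabilise the messages it binds in the cytoplasm. The ZFP36 proteins (tristetraprolin and its paralogs) bind AU-rich elements through a pair of zinc fingers and recruit the CCR4-NOT deadenylase, while KHSRP binds through KH domains and recruits decay enzymes, the exosome among them. HuR and these proteins are known to compete for AU-rich elements, and several of the decay factors carry such elements in their own 3'UTRs. Arsenite is an oxidative stressor that stalls translation and gathers messages into stress granules, of which G3BP1 is a core protein.

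The series used Huh-7.5, a human hepatocellular carcinoma line, and CLIP, in which ultraviolet light joins HuR to RNA and an antibody (3A2) recovers the joined fragments. Cells were treated with 0.5 mM sodium arsenite for 45 min or were mock treated, and all groups received doses of 400 and 200 mJ/cm2 of ultraviolet light. Unmodified cells, labelled as without an APEX reaction, gave 3 libraries each of 4 groups, cytoplasmic or nuclear RNA under mock or arsenite treatment. The treatment protocol shared by all libraries of the series lists hydrogen peroxide, for these cells too, despite that label. The other 46 libraries came from cells carrying APEX-NLS, APEX-NES or APEX-G3BP1, a peroxidase directed to the nucleus, the cytoplasm or stress granules. All of those cells underwent the APEX labelling reaction with biotin phenol and hydrogen peroxide. Of these, 17 were input libraries (8 mock and 9 arsenite) and 29 were enriched on streptavidin after HuR recovery (14 mock and 15 arsenite). The fractions therefore differ from the APEX lines in genotype, labelled reaction and library set, and levels are not compared between them. The labels do not say whether replicates came from separate cultures, so p-values measure the spread between these libraries, which may be technical.

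The 12 fraction libraries held 235471 to 673322 tags (read fragments) in listed peaks, the inputs 1353 to 484305 and the enriched libraries 519 to 86419. Values are given as CPM, tags per 1000000 of the library's total. All 4 hepatocyte genes examined (albumin, AFP, APOB and SERPINA1) were detected in every fraction library. Albumin and AFP were lower in arsenite than in mock libraries of each fraction, without overlap, and SERPINA1 was lower without overlap in the cytoplasm and overlapped in the nucleus. APOB overlapped in the cytoplasm (174.4 to 275.0 CPM in mock and 177.4 to 205.0 CPM in arsenite libraries) and was higher after arsenite in the nucleus (75.3 to 103.5 and 104.8 to 134.5 CPM). Albumin had 381.9 to 557.8 CPM in cytoplasmic mock, 134.3 to 161.4 in cytoplasmic arsenite, 209.8 to 239.1 in nuclear mock and 64.1 to 84.8 in nuclear arsenite libraries. The leukocyte gene PTPRC had at most 5.46 CPM in any fraction library. NEAT1, a nuclear RNA, was higher in nuclear mock libraries (384.7 to 440.0 CPM) than in cytoplasmic mock libraries (116.1 to 138.3 CPM). After arsenite it had 200.7 to 280.3 CPM in cytoplasmic libraries, above all cytoplasmic mock libraries, and 436.4 to 626.3 CPM in nuclear libraries. The nuclear RNA MALAT1 overlapped between the mock fractions (2347 to 2739 CPM in nuclear and 2149 to 2708 CPM in cytoplasmic libraries). The share of all peak tags that lay in 3'UTR peaks also moved with the groups. It was 42.3% ± 4.58 (SD, n = 3) in cytoplasmic mock, 24.5% ± 0.939 in cytoplasmic arsenite, 11.7% ± 0.541 in nuclear mock and 19.2% ± 1.33 in nuclear arsenite libraries. More transcript and more HuR per transcript cannot be told apart in a CLIP value, nor can fewer cells and less RNA per cell.

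Of the 39 peaks, 32 (82.1%) lay in 3'UTRs, against 9.71% of all peaks. By the class the table finally assigns, every peak of ZFP36, ZFP36L1 and ZFP36L2 was a 3'UTR peak. KHSRP had 10 peaks in its 3'UTR, 2 in coding sequence and 1 in its 5'UTR. Its other 4 peaks, 1 assigned to an intron and 3 to a retained intron, were joined here into 1 intron class. Together the 4 genes held 6460 tags over the 58 libraries, 2750 of them from ZFP36L2, 1953 from KHSRP, 1713 from ZFP36L1 and 44 from ZFP36. HuR tags on ZFP36, the founding member of its family and an immediate early gene, were thus close to the limit of counting.

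Each peak was 20 nt long, and within each gene the peaks are numbered from 5' to 3' along the transcript. Positions are in GRCh38.p14 as the table gives them, on the minus strand for ZFP36L1, ZFP36L2 and KHSRP and on the plus strand for ZFP36. The leading ZFP36L1 peak was peak 3 (chr14:68788710-68788730), 1055 nt before the gene's annotated 3' end, with 918 of its 1713 tags. The leading ZFP36L2 peak was peak 1 (chr2:43224078-43224098), 1676 nt before the 3' end, with 1671 of its 2750 tags. KHSRP tags were less concentrated. Peak 13 (chr19:6413599-6413619), 497 nt before the 3' end, held 503 of the 1743 KHSRP 3'UTR tags, a share of 28.9%. Beside the 3'UTR, the table lists an intron annotation for KHSRP peaks 8 to 13 and for ZFP36L1 peaks 1 and 2. The second KHSRP peak by level was peak 8 (chr19:6414673-6414693). ZFP36 peak 2 (chr19:39409281-39409301), 106 nt before the 3' end, held 31 of its 44 tags. Neighbouring 3'UTR peaks were a median of 92 nt apart in ZFP36, 87 nt in ZFP36L1, 107 nt in ZFP36L2 and 137 nt in KHSRP. The sequences under the peaks were not analysed here.

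Per 20-nt 3'UTR peak, ZFP36L2 was the highest of the 4 in cytoplasmic mock libraries, with a mean level of 19.8 CPM ± 2.08 (SD, n = 3), 205th of 7619 genes with 3'UTR peaks. ZFP36L1 had 13.8 CPM ± 2.52 (316th), KHSRP 11.6 CPM ± 3.50 (377th) and ZFP36 0.345 CPM ± 0.340 (6602nd). ZFP36L1 and KHSRP differed by less than 1 SD of either. In cytoplasmic arsenite libraries the order of the mean levels per peak changed, with ZFP36L1 at 18.2 CPM (104th), ZFP36L2 at 11.7 CPM (184th), KHSRP at 10.5 CPM (212th) and ZFP36 at 0.728 CPM (4123rd). In nuclear mock libraries they were 7.06 CPM for ZFP36L2 (114th), 3.26 for ZFP36L1 (319th), 2.43 for KHSRP (477th) and 0.572 for ZFP36 (3104th). In nuclear arsenite libraries ZFP36L2 (14.6 CPM, 97th) and ZFP36L1 (13.7 CPM, 109th) were close to each other, above KHSRP (7.79 CPM, 222nd) and ZFP36 (0.563 CPM, 4243rd).

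**Figure D1:**
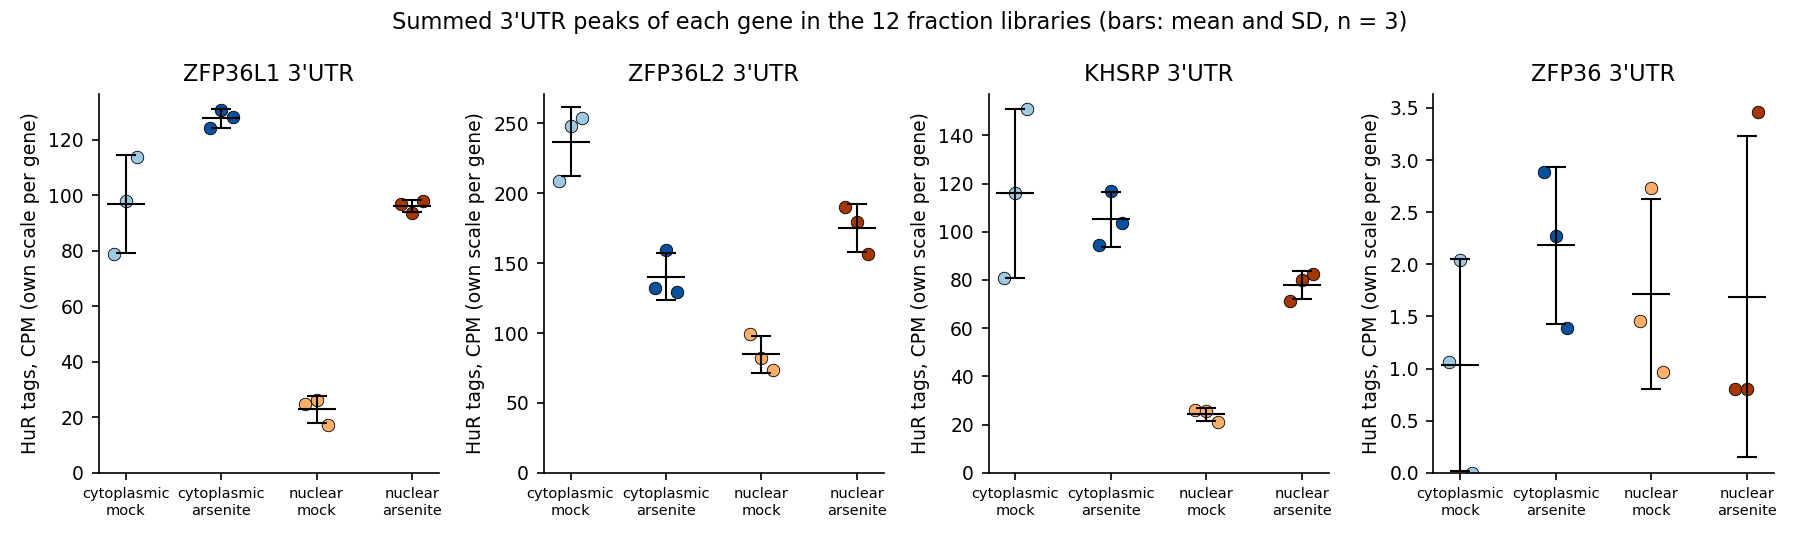
HuR tags in the 3'UTR peaks of each gene (y axis, CPM, its own scale per gene) in the 12 fraction libraries; points are libraries, bars the mean and SD of 3 libraries. Nuclear mock libraries were the lowest group for ZFP36L1, ZFP36L2 and KHSRP, and ZFP36 stayed at or below 3.47 CPM.

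The first comparison set nuclear against cytoplasmic RNA in mock-treated cells. HuR tags on the 3'UTRs of ZFP36L1, ZFP36L2 and KHSRP were 2.80 to 4.77 times higher in cytoplasmic than in nuclear libraries, with no overlap between the groups. ZFP36 had too few tags for a difference to be detectable, and the intronic KHSRP sum did not pass the test. The summed 3'UTR signal of ZFP36L1 was 78.7, 97.8 and 113.9 CPM in cytoplasmic mock libraries 1, 2 and 3, and 24.8, 26.4 and 17.4 CPM in the nuclear ones. ZFP36L2 had 208.5, 248.5 and 254.1 CPM in the cytoplasmic and 99.1, 81.8 and 73.4 CPM in the nuclear libraries. KHSRP had 80.8, 116.1 and 150.8 CPM in the cytoplasmic and 26.2, 25.5 and 21.2 CPM in the nuclear libraries. For each of these genes all 3 cytoplasmic libraries lay above all 3 nuclear ones, and the spread was widest in cytoplasmic KHSRP.

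Differences were tested with limma on log2(CPM + 2.28), fitted over all gene-by-class sums, with Benjamini-Hochberg adjustment and a threshold of 0.05. Nuclear minus cytoplasmic, the difference was -2.11 (SE 0.222) for KHSRP with an adjusted p of 8.9e-06. It was -1.98 (SE 0.211, adjusted p = 1.0e-05) for ZFP36L1 and -1.46 (SE 0.157, adjusted p = 1.1e-05) for ZFP36L2. So 3 of the 4 tested 3'UTR sums were called lower, while 49.4% of all tested 3'UTR sums were, and 16.2% of sums of every class. The members' median difference was -1.72 and that of all 3'UTR sums -0.98. The lower share of 3'UTR tags in nuclear libraries moved with these differences, and its part in them was not tested. ZFP36 had 1, 2 and 0 tags in the cytoplasmic and 1, 3 and 1 in the nuclear mock libraries, so the groups overlapped. KHSRP intronic peaks had 2.13, 7.13 and 2.11 CPM in cytoplasmic and 5.83, 8.18 and 7.72 CPM in nuclear mock libraries, again with overlap, and the difference of 0.74 (SE 0.381) had a limma adjusted p of 0.167.

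Single peaks showed the same difference at the leading positions. Of 32 member peaks tested, 8 were called lower in nuclear mock libraries by limma and none higher, all of them 3'UTR peaks, while 2.29% of all tested peaks were called lower and 0.53% higher, and 13.1% of 3'UTR peaks were called lower. ZFP36L1 peak 3 had 38.3, 41.8 and 44.3 CPM in cytoplasmic and 8.74, 10.0 and 4.83 CPM in nuclear libraries. ZFP36L2 peak 1 had 123.4, 159.9 and 148.7 CPM in cytoplasmic and 51.0, 40.9 and 40.6 CPM in nuclear libraries. Both peaks separated the groups fully. The log2 difference was -2.14 (SE 0.285, limma adjusted p = 0.0039) for ZFP36L1 peak 3 and -1.65 (SE 0.184, limma adjusted p = 0.0017) for ZFP36L2 peak 1. The other 6 called peaks were ZFP36L1 peaks 2 and 4, ZFP36L2 peak 3 and KHSRP peaks 8, 13 and 15, with log2 differences of -2.74 to -1.54. All 7 tested ZFP36L1 peaks had a negative difference, as did 9 of 12 for ZFP36L2 and 10 of 12 for KHSRP. Peak calls rested on few libraries. Without cytoplasmic mock library 2, none of the 224422 peaks tested in the whole table was called, and each of the 8 member calls was lost for between 2 and 6 of the 6 libraries left out. The 3 gene sums kept their calls whichever library was left out, with a highest adjusted p of 0.0155.

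**Figure D2:**
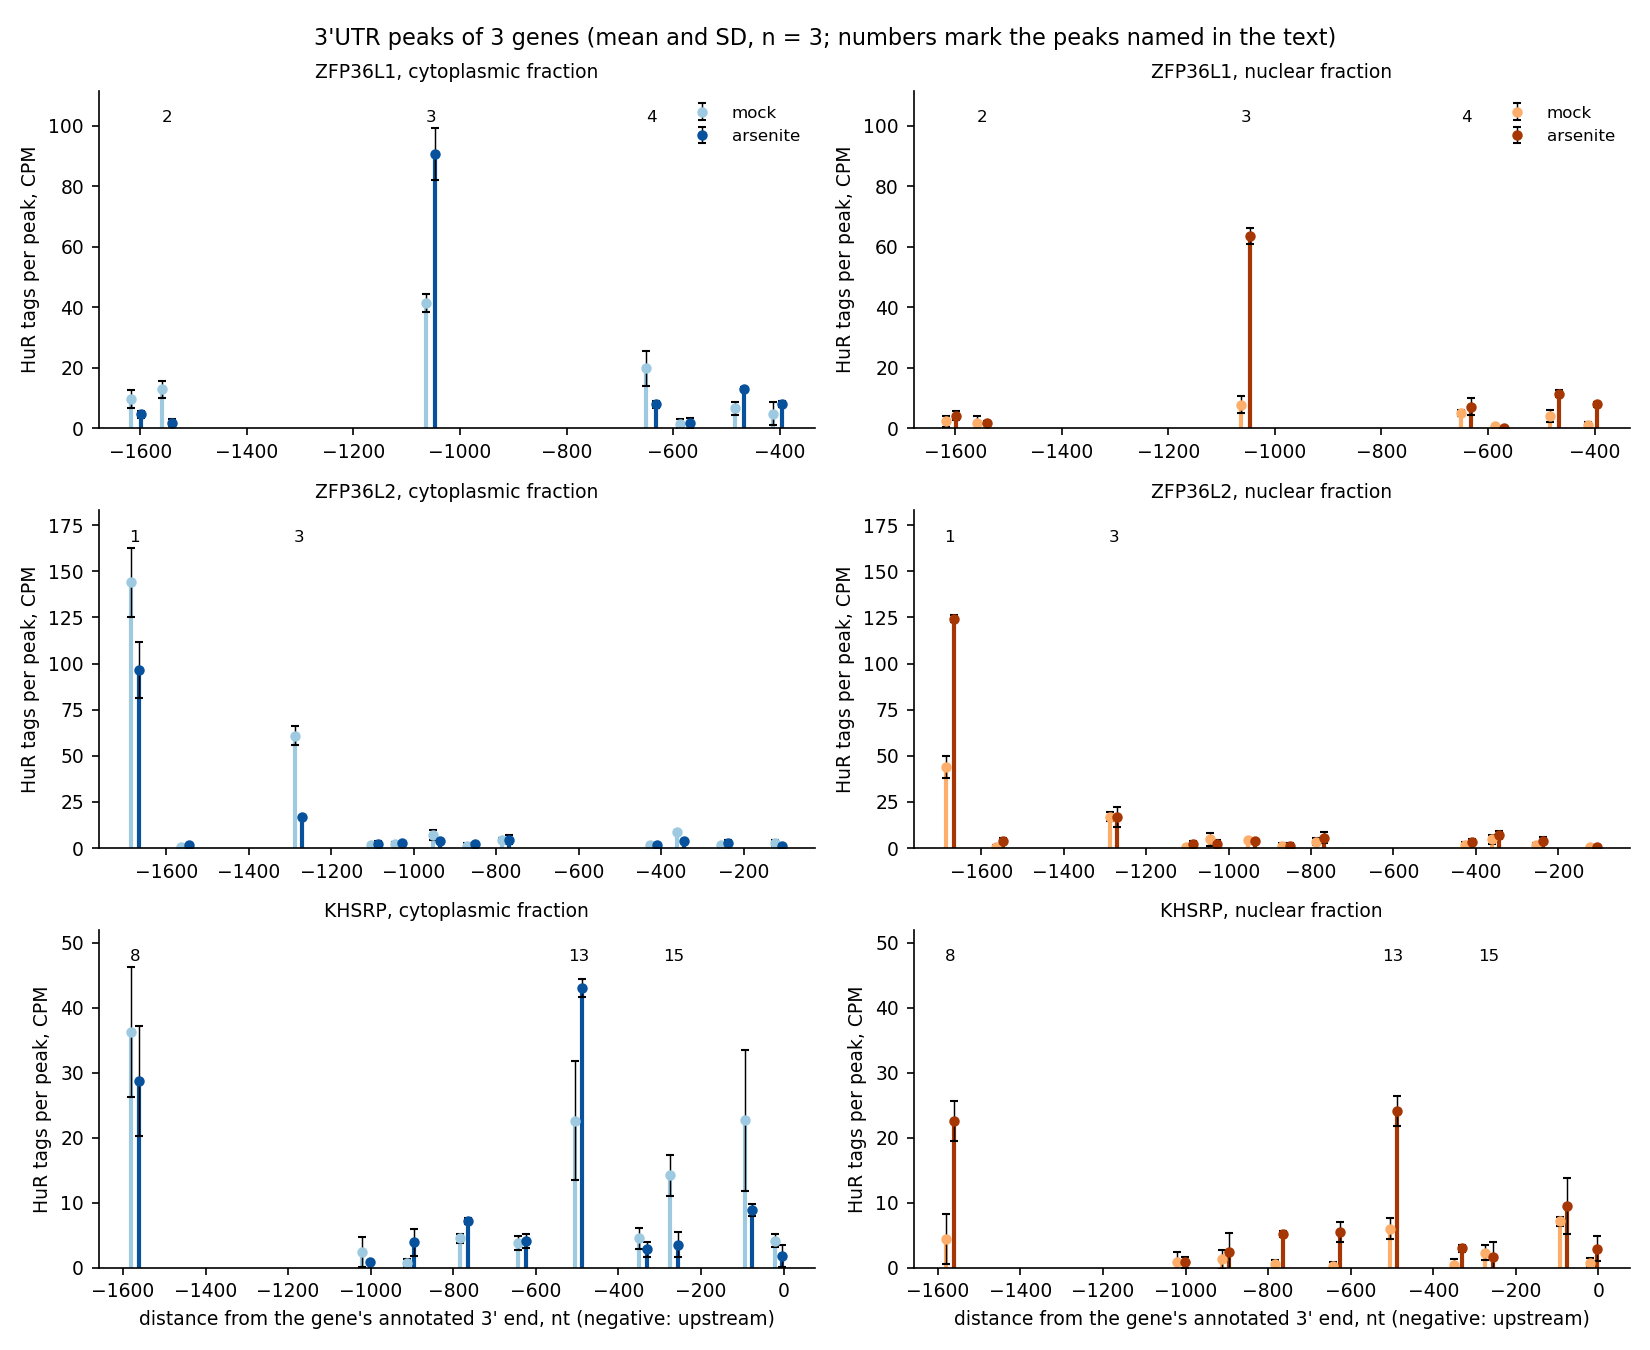
Mean HuR signal (y axis, CPM; bars SD, n = 3) at each 3'UTR peak of ZFP36L1, ZFP36L2 and KHSRP against its distance in nt from the gene's annotated 3' end, in cytoplasmic and nuclear libraries under mock and arsenite treatment. ZFP36L1 peak 3 and KHSRP peak 13 stood higher in arsenite than in mock libraries in both fractions, and ZFP36L2 peak 1 did so in the nuclear libraries.

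Arsenite was then compared with mock treatment within each fraction, which reuses the mock libraries of the first comparison. In nuclear libraries, HuR tags on the 3'UTRs of ZFP36L1, ZFP36L2 and KHSRP rose after arsenite by 2.07 to 4.21 times, with no overlap. The nuclear arsenite libraries held 96.9, 93.6 and 97.9 CPM for ZFP36L1 and 71.3, 80.0 and 82.3 CPM for KHSRP. For ZFP36L2 they held 190.6, 179.2 and 156.8 CPM. Each of these 9 values was above all mock nuclear values of its gene given earlier. The difference, arsenite minus mock, was 1.99 (SE 0.168, limma adjusted p = 3.8e-06) for ZFP36L1, 1.59 (SE 0.156, adjusted p = 1.6e-05) for KHSRP and 1.04 (SE 0.128, adjusted p = 0.00013) for ZFP36L2. These were 3 of the 4 tested 3'UTR sums, where 13.8% of all tested 3'UTR sums and 4.48% of all sums were called higher. The members' median was 1.31 and that of all 3'UTR sums 0.39. Without nuclear arsenite library 3 only 54 sums of the whole table were called and these 3 were not (adjusted p 0.0502 to 0.0617), with differences of 1.11 to 1.98. The share of 3'UTR tags was also higher in these libraries, as given earlier, and its part was not tested. ZFP36 did not pass (log2 difference -0.05, limma adjusted p = 0.959), with 6 tags in the arsenite and 5 in the mock nuclear libraries.

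At single peaks in the nuclear libraries, 25 of the 29 tested member 3'UTR peaks had a positive difference (median 0.50, against 0.23 for all 3'UTR peaks). An unadjusted p under 0.05 was seen for 10 of them, against 21.4% of all 3'UTR peaks, and limma called 3 after adjustment. ZFP36L1 peak 3 had 66.5, 61.6 and 62.4 CPM after arsenite, against at most 10.0 CPM in mock libraries. ZFP36L2 peak 1 had 126.5, 123.2 and 123.0 CPM, and KHSRP peak 13 had 24.8, 21.6 and 26.0 CPM against 5.83, 4.55 and 7.72 CPM in mock libraries. None of these groups overlapped. The differences were 2.73 (SE 0.25, limma adjusted p = 0.00095), 1.45 (SE 0.149, adjusted p = 0.0019) and 1.68 (SE 0.262, adjusted p = 0.0259). These were the 3 member peaks called of 33 tested, where 0.152% of all tested peaks and 1.2% of 3'UTR peaks were called higher. KHSRP peak 8 had 20.02, 21.6 and 26.0 CPM after arsenite and 5.83, 7.27 and 0 CPM in mock libraries, and with a difference of 2.14 it did not pass (limma adjusted p = 0.130). ZFP36L1 peaks 6 and 7, ZFP36L2 peak 2 and KHSRP peaks 6, 11, 12 and 14, picked after their values were seen, also had no overlap between treatments. Their differences were 0.95 to 1.64, and none passed (limma adjusted p 0.0872 to 0.233). The share of all peaks without overlap was not counted, so nothing is drawn from this. Mock tags were few, such as 1, 0 and 0 for KHSRP peak 14 and 1, 0 and 1 for ZFP36L2 peak 2. ZFP36L2 peak 3, the second peak of that gene, had 22.4, 16.8 and 11.3 CPM after arsenite and 17.5, 19.1 and 14.5 CPM in mock libraries, so the groups overlapped. No member peak was called without nuclear mock library 1 or without nuclear arsenite library 1 or 2, when 1 peak of the whole table was called in each case. With TMM scaling in edgeR the ZFP36L2 peak 1 and KHSRP peak 13 calls were lost (adjusted p = 0.0606 and 0.0568), and 1 member peak and 0.0504% of all peaks were called.

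In cytoplasmic libraries the 3 genes parted. ZFP36L2 had 132.1, 159.7 and 129.4 CPM after arsenite, all below its mock values, and fell by 0.75 (SE 0.152, limma adjusted p = 0.0040). ZFP36L1 had 124.2, 130.7 and 128.0 CPM, all above its mock values, but the difference of 0.41 (SE 0.165) did not pass (limma adjusted p = 0.117). KHSRP had 94.6, 117.1 and 103.6 CPM, inside the range of its mock libraries, and its difference was -0.10 (SE 0.199, limma adjusted p = 0.800). The ZFP36L2 call was lost without cytoplasmic mock library 2 or any 1 of the 3 cytoplasmic arsenite libraries, with an adjusted p of up to 0.0756. One of 4 tested member 3'UTR sums was thus called lower and none higher, where 18.6% of all tested 3'UTR sums were called lower and 0.942% higher. The members' median was 0.15 and that of all 3'UTR sums -0.30. ZFP36 had 4, 4 and 2 tags after arsenite against 1, 2 and 0 in mock libraries, a log2 difference of 0.46 that did not pass (limma adjusted p = 0.403).

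KHSRP was the only 1 of the 4 with peaks in the intron class, which joins intron peak 1 and retained-intron peaks 3, 5 and 6. Its intronic sum was 10.1, 11.4 and 10.4 CPM in cytoplasmic arsenite libraries, each above the 2.13, 7.13 and 2.11 CPM of mock libraries. The difference of 1.19 (SE 0.336) passed (limma adjusted p = 0.0287), where 6.7% of all tested sums were called higher, but the call was lost for 5 of the 6 libraries left out (adjusted p up to 0.181). The nuclear RNA NEAT1 was also higher in these cytoplasmic arsenite libraries, as given earlier, and its part was not tested. Peak 6 (chr19:6419851-6419871), which was picked after its values were seen because it leads the 4 intronic peaks, has the retained intron as its final class. It had 8.66, 10.2 and 7.65 CPM in cytoplasmic arsenite and 2.13, 6.11 and 2.11 CPM in cytoplasmic mock libraries, without overlap, and did not pass alone (difference 1.02, limma adjusted p = 0.0939). In nuclear libraries the intronic sum was 11.2, 10.4 and 13.0 CPM after arsenite and did not pass (difference 0.54, limma adjusted p = 0.257). Coding-sequence peaks of KHSRP held 0 tags in all 6 mock fraction libraries and 6 tags in the 6 arsenite libraries. The 5'UTR peak likewise held 0 and 6 tags. The limit set by a count of 0, 3 tags, was 1.71 to 4.37 CPM in the fraction libraries and covers counting error only.

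At single peaks in the cytoplasm, differences within 1 gene went both ways. Of 32 member peaks tested, limma called 1 higher and 2 lower, where 0.24% of all tested peaks were called higher and 0.52% lower. Of 3'UTR peaks 0.112% were called higher and 2.69% lower. ZFP36L1 peak 3 had 80.9, 94.4 and 96.7 CPM after arsenite and no overlap with mock libraries (difference 1.09, SE 0.187, limma adjusted p = 0.0325). ZFP36L1 peak 2 (chr14:68789205-68789225), 495 nt upstream of it, had 2.17, 2.84 and 0.696 CPM after arsenite and 12.8, 10.2 and 15.8 CPM in mock libraries. It fell by 1.88 (SE 0.304, limma adjusted p = 0.0250). Peak 4 of the same gene (chr14:68788296-68788316) had 9.39, 7.39 and 6.96 CPM against 13.8, 20.4 and 25.3 CPM, without overlap, and its difference of -1.09 did not pass (limma adjusted p = 0.0684).

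ZFP36L2 peak 3 (chr2:43223681-43223701) had 15.9, 17.1 and 17.4 CPM after arsenite and 55.3, 62.1 and 65.4 CPM in mock libraries, and fell by 1.73 (SE 0.209, limma adjusted p = 0.0074). ZFP36L2 peak 1 had 93.1, 113.1 and 83.5 CPM after arsenite, below its mock values in every library, and its difference of -0.57 did not pass (limma adjusted p = 0.0953). KHSRP showed a similar layout with no call in the main fit. Peak 13 had 41.9, 42.6 and 44.5 CPM after arsenite against 14.9, 20.4 and 32.7 CPM in mock libraries (difference 0.92, limma adjusted p = 0.0939). Peak 15 (chr19:6413367-6413387) had 2.89, 5.68 and 2.09 CPM against 10.6, 16.3 and 15.8 CPM (difference -1.53, limma adjusted p = 0.0615). Neither of these 2 peaks overlapped between the groups. Of 14 alternative fits, 2 called KHSRP peak 13 and 6 called KHSRP peak 15. The calls of the 3 member peaks were lost without cytoplasmic mock library 2 or 3, when 0 and 43 peaks of the whole table were called. The ZFP36L1 peak 3 call was also lost with a pseudocount 4 times larger (limma adjusted p = 0.0611). Of the 32 member peaks tested, 13 had an unadjusted p under 0.05, against 19.1% of all peaks. On whole tags edgeR called 6 of them, 1 higher and 5 lower, and 1.44% of all peaks.

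**Figure D3:**
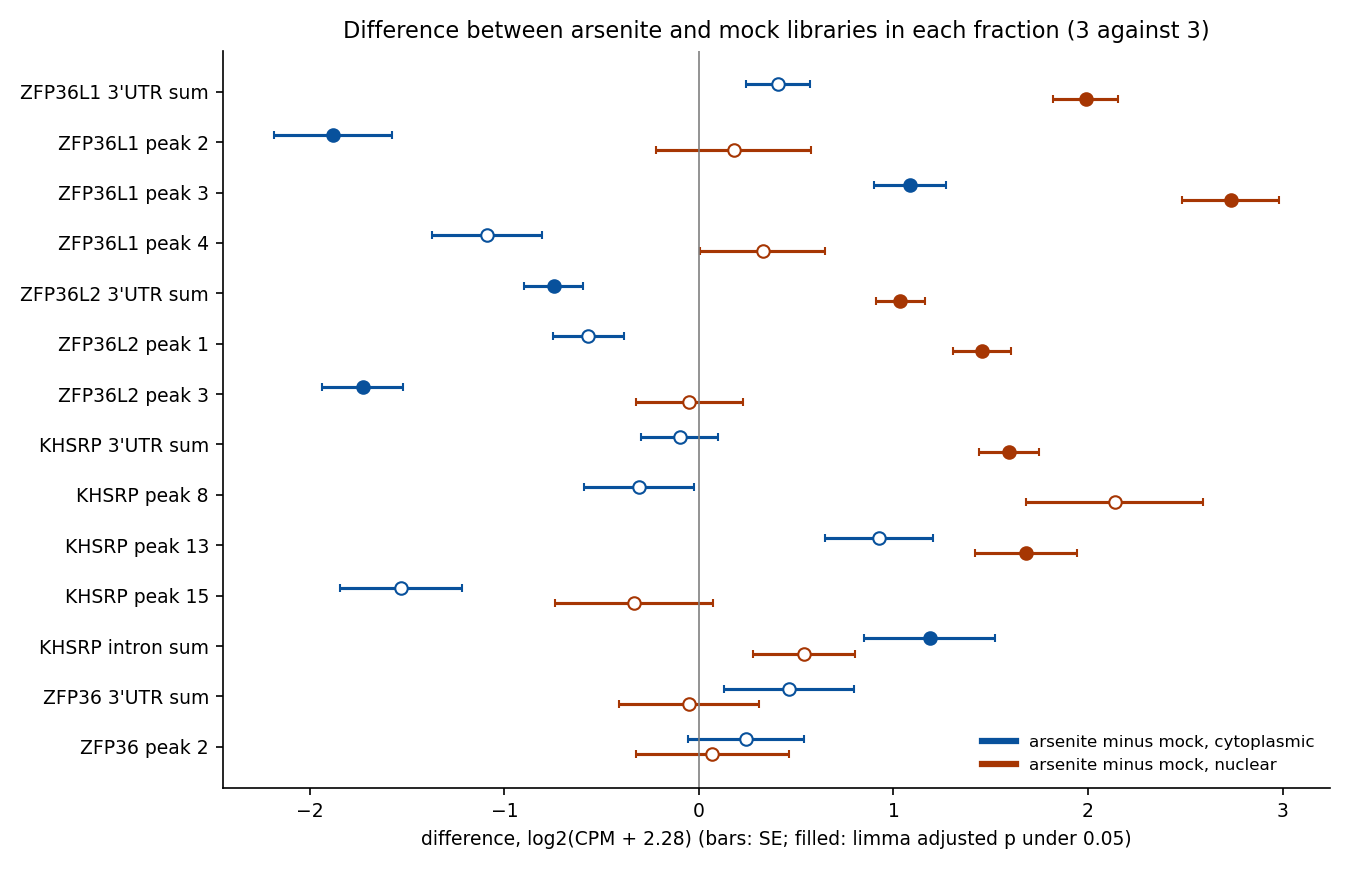
Difference between arsenite and mock libraries (x axis, log2 of CPM plus the pseudocount; bars SE; 3 against 3 libraries) for the named sums and peaks, in cytoplasmic and nuclear libraries; filled points have a limma adjusted p under 0.05. The nuclear values lay to the right of the cytoplasmic ones for the 3'UTR sums of ZFP36L1, ZFP36L2 and KHSRP.

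The share of a gene's own 3'UTR tags in each peak removes the level of the transcript. The shares of a gene add up to a whole, so a rise at 1 peak lowers the share of the others. ZFP36L1 peak 3 took 48.6%, 42.7% and 38.9% of the gene's tags in cytoplasmic mock libraries and 65.1%, 72.2% and 75.5% after arsenite. In nuclear libraries it took 35.3%, 37.9% and 27.8% under mock treatment and 68.6%, 65.8% and 63.7% after arsenite. Arsenite libraries were thus above mock libraries in both fractions. Peak 4 went the other way, from a mean of 20.2% ± 2.39 (SD, n = 3) to 6.22% ± 1.17 in the cytoplasm and from 22.2% ± 1.42 to 7.46% ± 2.90 in the nucleus, with no overlap. Its nuclear level was not lower after arsenite, at 7.16 CPM ± 2.73 against 5.05 CPM ± 1.04 in mock libraries, with overlap. Peak 2 went from 13.5% ± 2.92 to 1.49% ± 0.845 in the cytoplasm without overlap, and from 7.60% ± 8.80 to 2.01% ± 0.563 in the nucleus with overlap.

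The share of ZFP36L2 peak 1 went from 60.7% ± 3.19 to 68.6% ± 3.55 in the cytoplasm and from 52.2% ± 2.72 to 71.2% ± 6.39 in the nucleus, while peak 3 went from 25.8% ± 0.766 to 12.1% ± 1.38 and from 20.2% ± 2.88 to 9.44% ± 2.29. None of these groups overlapped. The nuclear level of peak 3 was 16.8 CPM ± 5.58 after arsenite and 17.0 CPM ± 2.34 in mock libraries. KHSRP peak 13 went from 19.2% ± 2.18 to 41.2% ± 4.21 of the 3'UTR tags in the cytoplasm without overlap, and from 25.5% ± 9.67 to 31.1% ± 3.93 in the nucleus with overlap. KHSRP peak 15 went from 12.6% ± 1.85 to 3.31% ± 1.44 and from 9.64% ± 4.39 to 2.13% ± 2.77, without overlap in either fraction. The share in KHSRP peak 8 overlapped between treatments in both fractions. Nuclear mock shares rested on few tags, 64 for ZFP36L1 and 68 for KHSRP. The exact two-sided permutation test cannot go below p = 0.1 for 3 against 3 libraries, and over the 40 share comparisons the adjusted value at that limit was 0.191, so no share difference passed.

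KHSRP tags outside its 3'UTR peaks made up 2.56%, 5.79% and 1.38% of all its tags in cytoplasmic mock libraries and 10.3%, 9.65% and 10.8% after arsenite. In nuclear libraries they made up 18.2%, 24.3% and 26.7% under mock treatment and 16.0%, 12.3% and 15.2% after arsenite. The 4 groups did not overlap, with nuclear mock libraries the highest and cytoplasmic mock libraries the lowest.

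**Figure D4:**
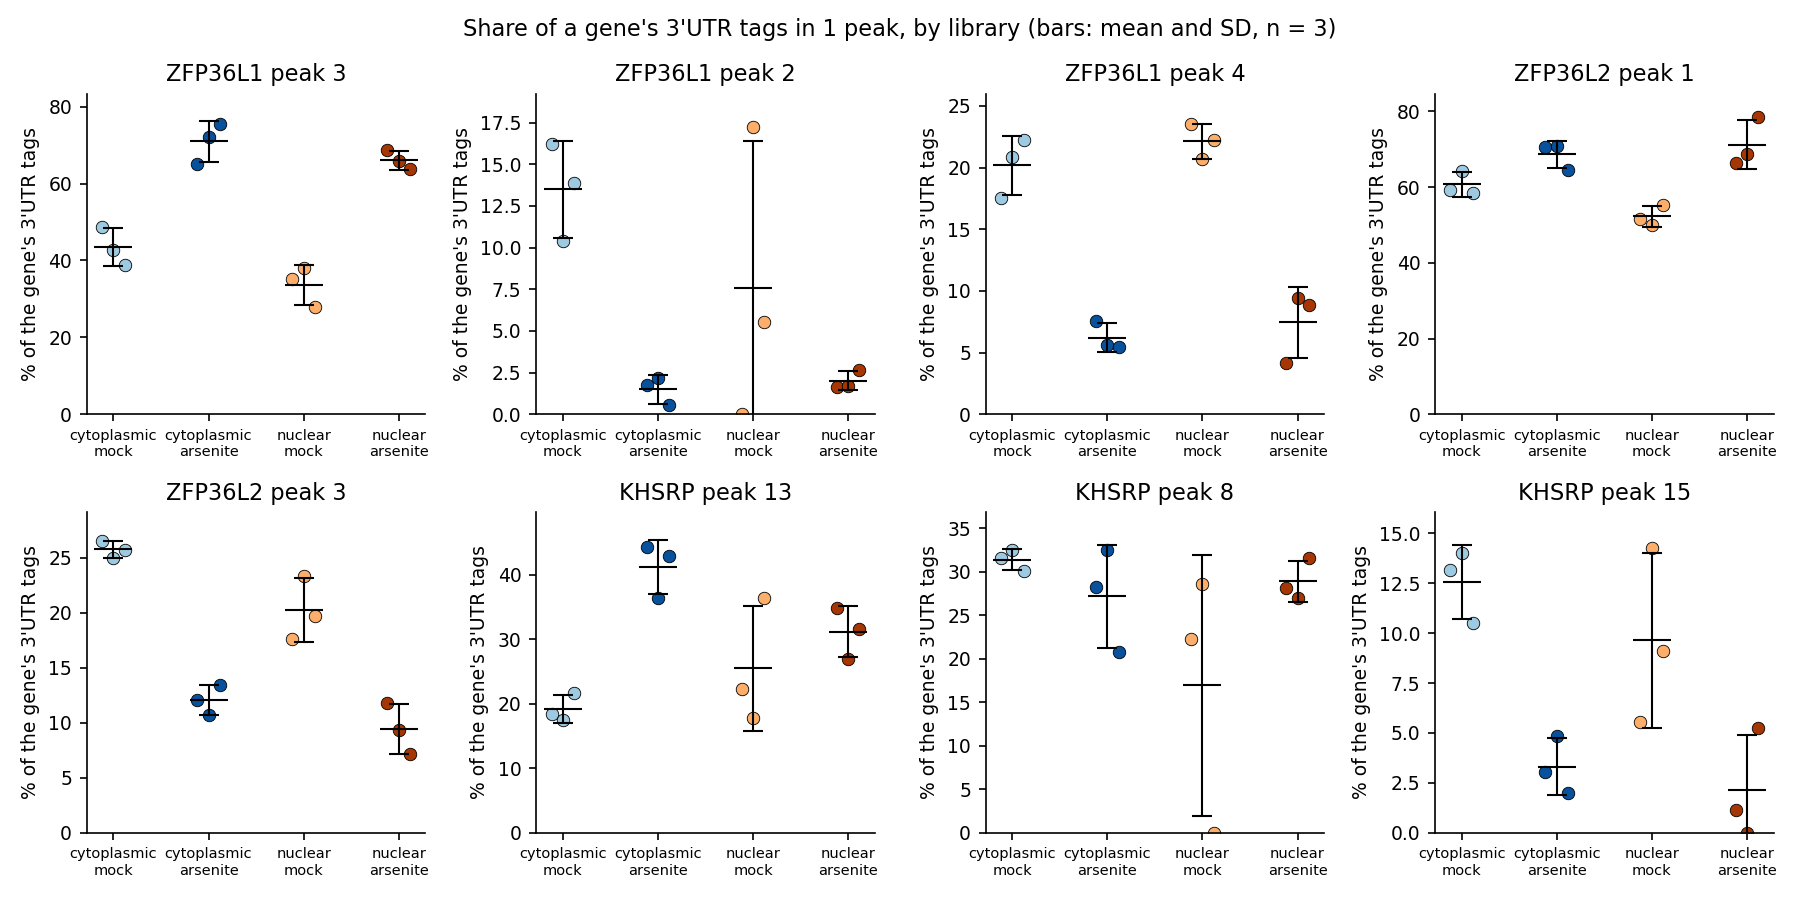
Share of a gene's 3'UTR tags that fell in 1 peak (y axis, percent) in each of the 12 fraction libraries, with 1 panel for each of 8 named peaks of ZFP36L1, ZFP36L2 and KHSRP; bars are the mean and SD of 3 libraries. ZFP36L1 peak 3 took a larger share in all 6 arsenite than in all 6 mock libraries.

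The interaction of fraction and arsenite, the nuclear arsenite difference minus the cytoplasmic one, was tested over all 12 libraries. It was positive for the 3'UTR sums of ZFP36L2 (1.78, SE 0.195, limma adjusted p = 4.2e-11), KHSRP (1.69, SE 0.251, adjusted p = 3.3e-07) and ZFP36L1 (1.58, SE 0.241, adjusted p = 6.4e-07). These 3 of 4 tested sums compare with 24.2% of all tested 3'UTR sums and 7.05% of all sums called higher. The members' median was 1.64 and that of all 3'UTR sums 0.63. All 3 calls held when any 1 library was left out. ZFP36 did not pass (-0.52, SE 0.520, limma adjusted p = 0.621). The interaction uses the same libraries as the comparisons already given and is not independent of them.

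Of 37 member peaks, 5 had a called interaction and all were positive, where 0.318% of all tested peaks and 2.46% of 3'UTR peaks were. ZFP36L2 peak 1 had 2.02 (SE 0.178, limma adjusted p = 3.8e-18) and held without any 1 library. KHSRP peak 8 had 2.44, ZFP36L1 peak 3 had 1.65, ZFP36L2 peak 3 had 1.68 and ZFP36L1 peak 2 had 2.06, with limma adjusted p-values of 0.0014, 0.0015, 0.0338 and 0.0485. Those 4 calls were lost for 9, 3, 10 and 11 of the 12 libraries left out. With a pseudocount 4 times larger the first 3 were lost. The ZFP36L1 peak 2 call was lost in 16 of 19 alternatives, left-out libraries among them, and by edgeR its adjusted p was 0.679.

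For the 3'UTR sums of ZFP36L1, ZFP36L2 and KHSRP, nuclear and cytoplasmic libraries were nearer to each other after arsenite. NEAT1 moved with this, at 116.1 to 138.3 CPM in cytoplasmic mock and 200.7 to 280.3 CPM in cytoplasmic arsenite libraries, and its part was not tested. Nuclear minus cytoplasmic, the difference was -0.40 (SE 0.110, limma adjusted p = 0.0329) for ZFP36L1, whose nuclear values were all below its cytoplasmic ones. KHSRP, also without overlap, had -0.42 (SE 0.125, adjusted p = 0.0528), and ZFP36L2, with overlap, had 0.32 (SE 0.111, adjusted p = 0.110). So 1 of 4 tested 3'UTR sums was called lower, where 9.89% of all tested 3'UTR sums and 3.38% of all sums were, and the ZFP36L1 call was lost without any 1 of the 6 libraries (adjusted p up to 0.172). With libraries scaled to tags in peaks the ZFP36L1 call was also lost (-0.34, limma adjusted p = 0.0544) and ZFP36L2 was called higher in the nucleus (0.38, adjusted p = 0.0226). The members' median was -0.31 and that of all 3'UTR sums -0.17. No member peak of 36 tested was called by limma, where 0.257% of all tested peaks were. At an unadjusted p under 0.05 there were 4 of the 36 member peaks, against 11.6% of all peaks, and edgeR called 0 members and 0.655% of all peaks. KHSRP peak 13 had the largest difference of the named peaks, -0.78 (limma adjusted p = 0.149). ZFP36 had 10 tags in the cytoplasmic and 6 in the nuclear arsenite libraries.

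Other genes of the decay pathways were described by their 3'UTR sums in the same 5 tests. Of 27 genes for deadenylation and decapping, 21 were tested between mock fractions, and 13 were lower in the nucleus and none higher (median -1.47), where 49.4% of all tested 3'UTR sums were lower. CNOT7, a deadenylase of CCR4-NOT, went from 47.1 CPM ± 10.4 (SD, n = 3) in the cytoplasm to 3.47 CPM ± 0.495 in the nucleus (difference -3.08, limma adjusted p = 1.2e-06). In the nucleus 8 of 22 rose after arsenite, where 13.8% of all 3'UTR sums did, and none fell (median 0.66). The largest rise was that of DDX6, an RNA helicase of the decapping machinery, from 24.0 CPM ± 5.58 to 133.3 CPM ± 11.9 (difference 2.38, limma adjusted p = 9.5e-07). In the cytoplasm 2 of 22 fell after arsenite, where 18.6% of all 3'UTR sums did, and none rose (median -0.25). The larger fall was that of LSM1, a subunit of the ring that promotes decapping, from 10.5 CPM ± 5.62 to 2.09 CPM ± 1.36. After arsenite 4 of 24 were lower in the nucleus than in the cytoplasm, where 9.89% of all 3'UTR sums were, and none higher (median -0.20). The interaction was called positive for 10 of 24, where 24.2% of all 3'UTR sums were, and negative for none, with the largest value of 3.05 for TOB1, which binds CCR4-NOT.

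Of 13 exosome genes, 7 or 8 had tags in enough libraries to be tested. Between mock fractions 2 of 8 were lower in the nucleus, where 49.4% of all 3'UTR sums were. In the nucleus 1 of 7 rose after arsenite, where 13.8% did. That 1 was EXOSC6, a core subunit, which went from 10.9 CPM ± 2.21 to 35.5 CPM ± 5.32 (difference 1.52, limma adjusted p = 0.00046) and had the only called interaction of the 8 tested (2.03), where 24.2% of all 3'UTR sums were called positive. In the cytoplasm 0 of 8 were called between treatments, where 18.6% of all 3'UTR sums were lower and 0.942% higher. After arsenite 0 of 8 were called between fractions, where 9.89% of all 3'UTR sums were lower in the nucleus.

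The third list held 20 other RNA-binding proteins, of which 17 were tested. It was gathered for AU-rich and U-rich binding but also holds proteins of other preference, such as PCBP1. Between mock fractions 15 were lower in the nucleus, where 49.4% of all 3'UTR sums were, and none higher (median -1.64). PCBP1, a poly(C)-binding protein, had the largest difference, from 157.8 CPM ± 32.7 to 12.9 CPM ± 3.95 (-3.41, limma adjusted p = 2.0e-07). In the nucleus 9 rose after arsenite, where 13.8% of all 3'UTR sums did, and none fell (median 0.80). The largest rise was that of PUM2, a Pumilio repressor, from 8.06 CPM ± 2.21 to 24.5 CPM ± 3.997. In the cytoplasm 5 fell, where 18.6% of all 3'UTR sums did, and none rose (median -0.41). The largest fall was that of PCBP1, to 54.9 CPM ± 3.88 after arsenite. The interaction was positive for 14 of 17, where 24.2% of all 3'UTR sums were, and negative for none (median 1.34). After arsenite 5 were lower in the nucleus than in the cytoplasm, where 9.89% of all 3'UTR sums were. The largest of these differences was that of YBX1, a cold-shock domain protein (difference -2.50).

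The fourth list held 10 genes for kinases, a phosphatase and adapters that act on ZFP36 proteins. Between mock fractions 6 of 8 tested were lower in the nucleus (median -1.78), where 49.4% of all 3'UTR sums were. YWHAZ, an adapter that binds phosphorylated ZFP36 proteins, went from 174.6 CPM ± 37.8 to 12.8 CPM ± 2.27 (difference -3.54, limma adjusted p = 7.8e-08) and fell in the cytoplasm to 47.0 CPM ± 7.10 after arsenite. In the cytoplasm 3 of 9 fell after arsenite, where 18.6% of all 3'UTR sums did, and in the nucleus 2 of 9 rose, where 13.8% did. Between arsenite fractions 4 of 9 were lower in the nucleus, where 9.89% were, and the interaction was positive for 4 of 9, where 24.2% were. No gene of this list was called in the opposite direction in these tests. PPP2CB, a catalytic subunit of that phosphatase, was called higher in the nucleus after arsenite, at 3.31 CPM ± 0.970 against 0 in all 3 mock libraries.

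Genes with the pattern most like each member were taken from the 1191 genes with a mean of at least 20 3'UTR tags, by Pearson's r of log2 values over the 12 fraction libraries. The points are 3 libraries of each of 4 groups, so r describes the group pattern and carries no test. The genes most like ZFP36L1 included PRCC (r = 0.982) and ARIH1 (0.981). Those most like ZFP36L2 included BRD3 (0.980) and SOX9 (0.979). SOX9 had mean sums of 207.4 CPM in cytoplasmic mock, 96.7 in cytoplasmic arsenite, 61.0 in nuclear mock and 130.0 in nuclear arsenite libraries. KHSRP was nearest to TAOK1 (0.992), ZNF362 (0.983) and SH3BGRL2 (0.981). For ZFP36, itself below 20 tags, the highest r was 0.537 (RBM4). Among the members r was 0.963 for KHSRP and ZFP36L1, 0.858 for KHSRP and ZFP36L2 and 0.773 for ZFP36L1 and ZFP36L2. ZFP36, with few tags, had 0.010 with ZFP36L1, -0.11 with KHSRP and -0.32 with ZFP36L2.

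In input libraries of the APEX lines, no member sum differed between arsenite and mock treatment by limma with library set as a term. ZFP36L1 had 0 to 50.6 CPM (median 13.8) in 8 mock and 11.1 to 59.4 CPM (median 37.9) in 9 arsenite libraries. ZFP36L2 had 0 to 50.6 CPM (median 20.6) and 0 to 62.1 CPM (median 27.6). KHSRP had 0 to 44.5 CPM (median 18.1) and 0 to 82.0 CPM (median 25.3). The ranges of all 3 genes overlapped between treatments. ZFP36 had 3 tags in 2 of 8 mock and 13 tags in 6 of 9 arsenite libraries. The differences were 1.23 (SE 0.634, limma adjusted p = 0.488) for ZFP36L1, 0.84 (SE 0.298, adjusted p = 0.461) for ZFP36, 0.77 (SE 0.711, adjusted p = 0.697) for KHSRP, 0.56 (SE 0.688, adjusted p = 0.778) for ZFP36L2 and 0.46 (SE 0.345, adjusted p = 0.629) for the KHSRP introns. None of the 11316 sums of the table was called (0.0%), 1175 of them and 1 of the 5 member sums had an unadjusted p under 0.05, and edgeR called 3 of the 5 member sums higher, where it called 7.2% of all sums. ZFP36L1 differed by 0.09 within library set JL0361 (sets are named by the prefix of each library's label), 1.27 within JL0388 (limma adjusted p = 6.0e-05) and 2.10 within JL1024.

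**Figure D5:**
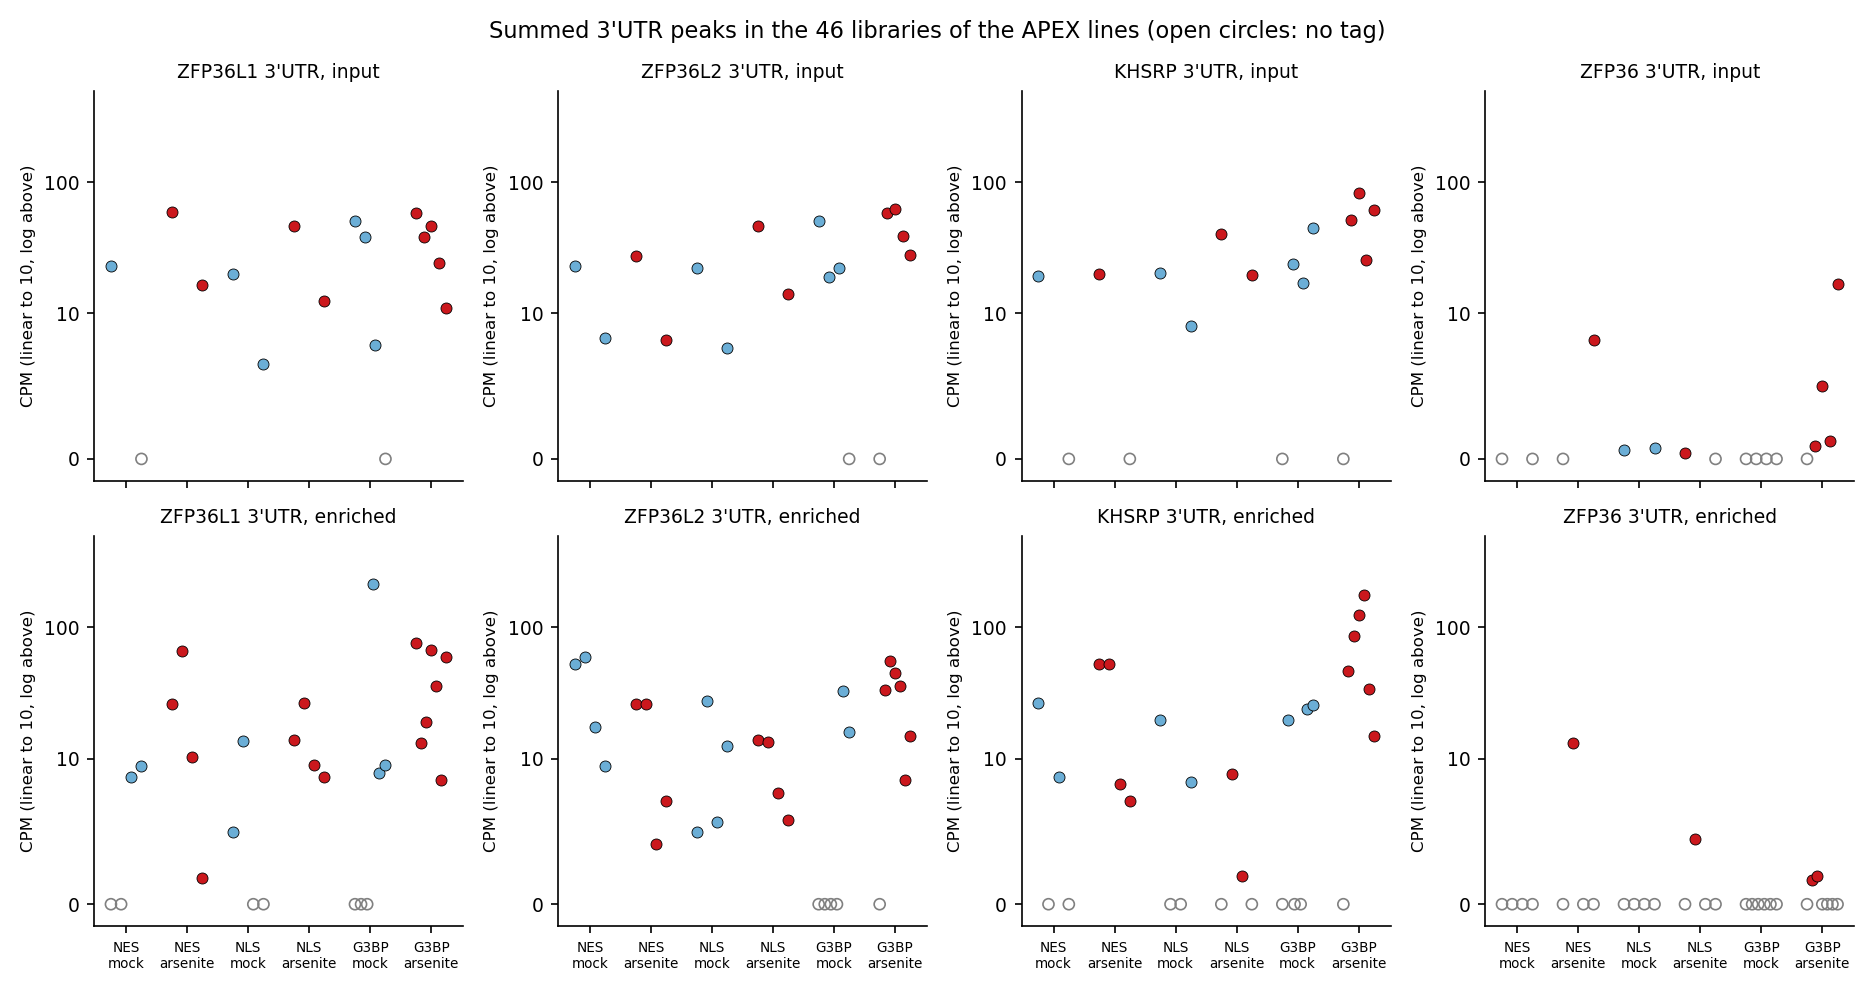
HuR tags in the 3'UTR peaks of each gene (y axis, CPM, linear to 10 and logarithmic above) in the 46 libraries of the APEX lines, by line, library kind and treatment; open circles are libraries with no tag. ZFP36 had tags in 12 of these libraries, and the 1 ZFP36L1 point at 214.5 CPM is 1 tag.

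The enriched libraries were shallow, and the 3 tags that a count of 0 allows came to 3.18 to 643.5 CPM in them. All 4 genes together had 372 tags there. Between APEX-NLS and APEX-NES enriched libraries under arsenite, KHSRP 3'UTR signal was called lower in APEX-NLS (difference -2.56, SE 0.822, limma adjusted p = 0.0450), where 0.598% of all tested 3'UTR sums and 0.243% of all sums were. It rested on 3 tags in 2 of 4 APEX-NLS libraries (0 to 8.92 CPM) and 14 tags in 4 of 4 APEX-NES libraries (7.08 to 52.5 CPM), which overlapped. The call was lost without any 1 library. It was also lost when pairs of libraries that could not be told apart were counted once. Within library sets it was -3.43 in JL0388, where both pairs could not be told apart and the value stands on 1 sample a group, and -1.68 in JL1024. Under mock treatment the differences were -0.11 (SE 1.05) for KHSRP, -0.04 (SE 0.838) for ZFP36L1 and -1.24 (SE 0.772) for ZFP36L2. None was called by limma at 0.05, where 0.0% of all sums were called lower and 20.8% higher. None had an unadjusted p under 0.05, where 29.8% of all sums and 7.76% of 3'UTR sums did. On whole tags edgeR called 0 members and 0.488% of all sums. Within sets ZFP36L1 went both ways, at 2.23 in JL0388, where the APEX-NLS pair could not be told apart and stands as 1 sample, and -2.32 in JL1024.

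APEX-G3BP1 enriched libraries had 94 KHSRP tags in 6 of 7 arsenite libraries (0 to 178.2 CPM) and 35 in 3 of 6 mock libraries (0 to 25.4 CPM). ZFP36L2 had 56 tags in 6 of 7 (0 to 55.3 CPM) and 26 in 2 of 6 (0 to 32.9 CPM). ZFP36L1 had 31 in 7 of 7 (8.54 to 76.1 CPM) and 13 in 3 of 6 (0 to 214.5 CPM). All 3 genes overlapped between treatments. Arsenite minus mock, the differences were 2.45 (SE 1.12, limma adjusted p = 0.270) for KHSRP, 2.13 (SE 1.12, adjusted p = 0.318) for ZFP36L1 and 2.12 (SE 1.07, adjusted p = 0.306) for ZFP36L2. No sum of the table was called (0.0%). An unadjusted p under 0.05 was seen for 415 of all sums (16.2%), 25.8% of 3'UTR sums and 2 of the 3 member sums. On whole tags edgeR called 0 of those 3. Within sets JL0361, JL0388 and JL1024 they were 1.59, 6.05 and -0.11 for KHSRP, 3.70, 1.21 and 1.17 for ZFP36L1 and 2.87, 4.21 and -0.89 for ZFP36L2. Both pairs of JL0388 libraries could not be told apart, so those values stand on 1 sample a group. Without libraries of under 10000 peak tags the differences were 0.44 for KHSRP, -0.09 for ZFP36L1 and -1.22 for ZFP36L2.

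Against APEX-NES, the APEX-G3BP1 enriched libraries differed under arsenite by 1.40 (SE 0.753, limma adjusted p = 0.295) for KHSRP, 1.04 (SE 0.878, adjusted p = 0.541) for ZFP36L1 and 0.69 (SE 0.908, adjusted p = 0.712) for ZFP36L2. None was called, where 3.12% of all sums and 5.52% of 3'UTR sums were called higher. The members' median was 1.04 and that of all 3'UTR sums 1.37. Under mock treatment the differences were 0.30 for KHSRP, 1.65 for ZFP36L1 and -1.97 for ZFP36L2, with no sum of the table called by limma (0.0%), 66 of all sums and 0 member sums at an unadjusted p under 0.05, and 0 members by edgeR. No member had an unadjusted p under 0.05 in the arsenite comparison either, where 19.8% of all sums and 27.9% of 3'UTR sums did. With only 3 members tested there, edgeR called 0 of them. These comparisons share their APEX-NES and APEX-G3BP1 libraries with those already given.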

How the data were processed

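HuR CLIP libraries of Huh-7.5 cells were used from 1 deposited table of signal per peak and library (tags divided by a library total). Bowtie2, SAMtools, bedtools, HOMER and the build GRCh38.p14 are listed, without versions, in the submitters' processing notes; how peaks were called is not given in the sources used here. Repeated lines (8257 of 395471) were dropped. Multiplying the deposited signal by the library total gave whole tag counts for 100% of values (within 0.01 of a whole number); those counts, recovered from the deposited values, served edgeR, the comparison of replicate pairs and the tag numbers given. Peaks were summed by gene and annotation class, which gave 30217 sums.

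Groups came from the sample titles. Tests used limma 3.58.1 (lmFit, eBayes with trend, two-sided) in R 4.3.3 on log2(CPM + 2.28), where the pseudocount is the median of the lowest value above 0 in each library. A peak or sum was fitted if the number of libraries with a tag reached the size of the smaller group. All were fitted together, with Benjamini-Hochberg adjustment and a threshold of 0.05, and library set as a term in the APEX lines. Shares were compared by exact permutation tests with Python 3.11.15 and scipy 1.17.1. The scripts were tested on simulated data.

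Alternatives were edgeR 4.0.16 on whole tags (by library total or TMM), pseudocounts 4 times smaller or larger, no filter, a mean of at least 5 tags, scaling to tags in peaks, a replicate block, each library left out, pairs counted once, single library sets and, chosen after seeing the data, libraries with under 10000 peak tags left out. Of 32 replicate pairs, 5 in the enriched libraries of set JL0388 could not be told apart from sampling noise; the fits kept them, and the alternative counts each once. All fraction libraries are of 1 set.

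Named in each gene were the 2 peaks with the highest mean over fraction libraries and up to 3 more that a peak test called; every member sum was described, and pathway genes were named as the largest called difference of each list. Members, lists and rules were chosen with earlier results of these data known. Intervals and limits cover counting error only. Some of the genes most like the members in pattern are not reported here.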

Additional observations from a re-analysis of the deposited data

Results flagged for a closer look

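Of 28 groups of 4 to 7 libraries examined, 3 had 1 library far from the others. The rate of about 1 of 20 groups that the rule assumes does not hold for these values. A lone tag with 0 in all other libraries of its group is always flagged. For ZFP36 the flagged values were such single tags. The highest APEX-NES arsenite enriched library had 13.1 CPM and the highest APEX-NLS arsenite enriched library 4.46 CPM, with 0 in the other libraries of each group. ZFP36L1 had 214.5 CPM in 1 APEX-G3BP1 mock enriched library and 9.53 CPM in the next, and that value is 1 tag in a library total of 4662.

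The difference between arsenite and mock libraries differed between the nuclear and the cytoplasmic fraction, by limma's interaction term, for 3 sums and 5 peaks. The 3'UTR sums differed by 1.78 for ZFP36L2, 1.69 for KHSRP and 1.58 for ZFP36L1 on the log2 scale, nuclear minus cytoplasmic. ZFP36L2 fell in the cytoplasm and rose in the nucleus, whereas ZFP36L1 and KHSRP passed the test in the nucleus only. Among peaks the differences were 2.44 for KHSRP peak 8, 2.06 for ZFP36L1 peak 2, 2.02 for ZFP36L2 peak 1, 1.68 for ZFP36L2 peak 3 and 1.65 for ZFP36L1 peak 3.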

How the results depend on the processing

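Over 77 results (a member sum or named peak in 1 comparison), 957 of 1164 alternative values kept the direction and the side of the threshold, 146 lost and 31 gained a call, and 30 changed sign. The interaction of the 3 sums (ZFP36L1, ZFP36L2, KHSRP) and of ZFP36L2 peak 1 was called in every alternative that could be fitted. Member peaks called, each with the share of all peaks called by the same fit, were 8 between mock fractions (5 with the smaller pseudocount, 1.87%; 3 with TMM, 1.03%; 10 with edgeR, 2.8%; 12 with no filter, 2.0%; 10 with at least 5 tags, 67.2%). Between arsenite fractions they were 0 (2 with no filter, 0.358%, and 2 with at least 5 tags, 23.9%). For arsenite in the cytoplasm they were 3 (12 with at least 5 tags, 43.8%, and 6 with edgeR, 1.44%) and in the nucleus 3 (6 with no filter, 0.245%, 7 with at least 5 tags, 26.5%, and 1 with TMM, 0.0504%). For the interaction they were 5 (2 with the larger pseudocount, 0.319%, and 8 with at least 5 tags, 32.3%). The stricter filter tests 6734 to 12506 peaks in place of 157168 to 334689, and calls a larger share of all of them. Leaving out 1 library gave 0 to 8, 0 to 0, 0 to 6, 0 to 3 and 1 to 4 member peaks. Over the whole table the same fits called 0 to about 16620, 0 to 57, 0 to 16959, 1 to 8614 and 347 to 1032 peaks. For sums, leaving out 1 library gave 3 to 4 between mock fractions, 0 to 0 between arsenite fractions, 0 to 1 and 0 to 3 for arsenite in the cytoplasm and nucleus, 3 to 3 for the interaction and 0 to 0 in each comparison of the APEX lines. Of all sums these fits called 3840 to 5156, 155 to 817, 480 to 2977, 54 to 910 and 2136 to 3369. In the APEX lines they called at most 840.

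Between arsenite fractions 1 member sum was called, where 1187 of all 23772 sums were. It was 2 with no filter (4.58% of all sums), 3 with at least 5 tags (14.7%) and 2 with edgeR (5.69%). With TMM it was 3 (6.19%) and with the replicate block 3 (5.45%). Scaled to tags in peaks it was 1 (5.29%), as in the main fit, but ZFP36L2 (higher) in place of ZFP36L1 (lower). In the inputs 0 sums were called, 3 with edgeR (7.2% of all sums) and 1 within JL0388 (2.89%). APEX-NLS against APEX-NES gave 0 under mock treatment and 1 under arsenite. That 1 became 0 with both pseudocounts, both filters, edgeR, TMM, the replicate block and pairs counted once. It also became 0 within JL1024 and without libraries of under 10000 tags, where 0.0% of all sums were called. Within JL0388 at least 1 group of each comparison is a pair that could not be told apart, so no count is given. Arsenite in APEX-G3BP1 gave 0, where 0.0% of all sums were called. Within JL0388 each of its groups is 1 pair that could not be told apart, and no count is given there. With TMM in place of library totals in edgeR, the median of all sums moved by -0.22 between mock fractions, and 1542 were called higher and 3704 lower in place of 2636 and 3347 (2714 and 3441 by limma); no called member changed sign. Replicate numbers did not pair the libraries: same-number correlations were -0.05 to 0.03 in the fractions and over 0.1 in both input pairs and in 2 of 6 APEX-G3BP1 pairs, and the block changed no other count of member sums or peaks by over 1.5 times. Over the whole table it moved the peaks called from 608 to 379 between arsenite fractions and from 465 higher and 1008 lower to 2347 in all for arsenite in the cytoplasm, and lowered the sums called between APEX-NLS and APEX-NES under arsenite by over 1.5 times, to 187.

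No value that changed sign was called. Outside left-out libraries these were ZFP36 peak 2 between mock fractions (-0.0754 with TMM), ZFP36L1 peak 2 (-0.0327 with edgeR, -0.17 with TMM) and ZFP36L2 peak 3 (0.0175 scaled to tags in peaks, 0.0119 with edgeR) between arsenite fractions, KHSRP peak 8 for arsenite in the cytoplasm (0.11 with TMM), and ZFP36L1 peak 2 (-0.14 with edgeR) and ZFP36L2 peak 3 (0.25 with TMM) for arsenite in the nucleus. With 1 library left out, ZFP36 peak 2 ranged from -0.22 to 0.29 and from -0.52 to 0.15 between mock and arsenite fractions, -0.0032 to 0.46 and -0.30 to 0.36 for arsenite in the cytoplasm and nucleus and -0.54 to 0.12 for the interaction. Between arsenite fractions ZFP36L1 peaks 4 and 2 ranged from -0.29 to 0.12 and -0.19 to 0.20, ZFP36L2 peak 3 from -0.24 to 0.19 and the KHSRP coding sum from -0.0433 to 0.48, as for its interaction. In the nucleus ZFP36L1 peak 2 ranged from -0.17 to 0.62, ZFP36L2 peak 3 from -0.26 to 0.18 and the ZFP36 sum from -0.35 to 0.12; in the cytoplasm the KHSRP 3'UTR sum ranged from -0.33 to 0.11. The cause of these changes was not tested.

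Depth limits ZFP36 everywhere (44 tags) and all members in the enriched libraries, of which several held under 10000 peak tags. A p that misses the threshold there does not show that values did not differ. Nuclear and cytoplasmic libraries were compared at their own totals, so a change in all transcripts of a fraction would not appear. Fractionation cannot be told apart from genotype and library set when set against the APEX lines.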
